A study of Arabidopsis thaliana with 36 samples.

Results

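The SAUR genes described here are the 32 members of 6 tandem arrays in the Arabidopsis thaliana genome, out of 33602 genes in the table of raw counts. They were taken by gene identifier, as SAUR genes of the stretches AT5G18010 to AT5G18080 (6 genes), AT1G29420 to AT1G29510 (8 genes), AT4G34750 to AT4G34810 (7 genes), AT4G38825 to AT4G38860 (4 genes), AT3G03820 to AT3G03850 (4 genes) and AT2G21200 to AT2G21220 (3 genes). SAUR73 (AT3G03847), which lies within the stretch on chromosome 3, is not among them. Whole seedlings of the uvr8-6 mutant, mutated in the UV-B photoreceptor UVR8, of the hfr1-101 mutant, mutated in HFR1, an atypical bHLH protein that inhibits PIF transcription factors, and of wild type Col-0 were compared at an age of 7 days. Each genotype was sampled under 3 h of low R:FR with UV-B (+FR+UVB), 3 h of low R:FR (+FR), 3 h of UV-B (+UVB) and constant white light (WL), with 3 libraries of 30 seedlings for each of the 12 groups. WL had a red to far-red ratio of 4.7, low R:FR was given as 0.05 in one label and 0.08 in another, and UV-B had a strength of 0.06 mW/cm2. Seedlings given UV-B stood under a filter that let it through, and the others under one that blocked it. Each mutant was a single allele in the Col-0 background, and seedlings were pooled whole, so that shoot and root were measured together. The sources used here do not say whether the 3 samples of a group came from separate sowings, and the p-values measure the spread between these samples.

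SAUR stands for SMALL AUXIN UP RNA, a plant gene family named for transcripts that accumulate within minutes of auxin treatment. SAUR proteins are small, and the well-studied ones, such as SAUR19, bind and inhibit PP2C.D phosphatases, which otherwise hold the proton pumps of the plasma membrane in an inactive state. Active pumps acidify the cell wall, and the cell can then expand. In seedlings the family is known for its part in hypocotyl elongation, among other things in the shade avoidance response to low R:FR, in which PIF transcription factors and auxin act upstream of many SAUR genes. SAUR transcripts are short-lived, which makes the family an early readout of growth signals.

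The arrays were placed on the RefSeq assembly TAIR10.1, while the authors counted reads on TAIR10. The chromosome 5 array (SAUR19 to SAUR24) spanned 21.5 kb at chr5:5962773-5984308 and encoded proteins of 88 to 91 residues. The chromosome 1 array (SAUR61 to SAUR68, the SAUR63 subfamily) spanned 21.9 kb at chr1:10301377-10323239 and held the longest proteins, with 102 to 186 residues. Chromosome 4 carried a first array (SAUR49, SAUR50 and SAUR1 to SAUR5) at chr4:16577180-16599568 and a second (SAUR13 to SAUR16) at chr4:18121526-18131284. The chromosome 3 array (SAUR29, SAUR28, SAUR27 and SAUR26, the SAUR26 subfamily) lay at chr3:976715-983768 and the chromosome 2 array (SAUR7, SAUR6 and SAUR12) at chr2:9083906-9090052. In each array genes lay on both strands. Of the 32 genes, 31 had a single exon in the annotation, and SAUR64 had 2.

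The arrays differed in how alike their members were. Coding sequences of the chromosome 5 array were 87.7% to 95.2% identical over 15 pairs of genes, with SAUR19 and SAUR24 the closest pair, and those of the chromosome 3 array were 77.7% to 86.3% identical over 6 pairs. The median identity was 63.0% in the chromosome 1 array, 57.1% in the second and 52.9% in the first chromosome 4 array and 40.3% in the chromosome 2 array, against 44.5% over 417 pairs taken from different arrays. The first 54 bases of the coding sequence of the 6 chromosome 5 genes, read from the TAIR10.1 genome, are shown because these genes are the closest copies and had the largest rise of any array under low R:FR. Capitals mark a base that is rarer than the commonest base at its position among the 6 genes, and at the 1 position where a pair of bases is equally common neither is in capitals.
SAUR19, chr5:5963252-5963305, minus strand: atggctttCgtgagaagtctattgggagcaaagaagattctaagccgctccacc
SAUR20, chr5:5966527-5966580, minus strand: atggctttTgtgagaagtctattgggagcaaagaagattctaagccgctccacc
SAUR21, chr5:5968527-5968580, plus strand: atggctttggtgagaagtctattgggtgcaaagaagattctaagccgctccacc
SAUR22, chr5:5974910-5974963, minus strand: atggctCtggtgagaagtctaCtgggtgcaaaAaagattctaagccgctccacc
SAUR23, chr5:5976030-5976083, plus strand: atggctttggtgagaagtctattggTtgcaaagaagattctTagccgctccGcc
SAUR24, chr5:5983840-5983893, plus strand: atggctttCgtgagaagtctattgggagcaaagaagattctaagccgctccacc
Each of the 6 genes had between 0 and 3 bases in capitals. Exonic windows of 100 bases, the length of the reads, were searched for as exact matches in the whole genome on both strands. None of the windows of the chromosome 5 genes was found again elsewhere. Near matches were not searched for, so that reads shared among these close copies through mismatches were not tested. Windows were repeated in SAUR67 (21.6% of its windows), SAUR63 (18.9%) and SAUR62 (8.57%) of the chromosome 1 array and in none of the other genes, so the counts of these 3 genes are less certain. Some genes also overlapped a neighbour. SAUR63 lay wholly opposite a gene on the other strand (AT1G29435, not analysed here), SAUR13 shared 433 bases with a gene on the other strand that had 2 counts in all 36 libraries together, and SAUR7 and SAUR6 shared 176 bases on the same strand.

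The 250 bases before the annotated start of each gene were searched on both strands for 6 motifs. CACATG, an E-box that PIF proteins are known to bind, was present before 23 of the 32 genes (71.9%), against 11.1% of the same windows before 27443 protein-coding genes of the assembly. It was found before 3 of 6 genes of the chromosome 5 array, 8 of 8 of the chromosome 1 array, 4 of 7 of the first and 3 of 4 of the second chromosome 4 array, 4 of 4 of the chromosome 3 array and 1 of 3 of the chromosome 2 array. The G-box CACGTG was found before 0 of the 32 genes (6.49% of all genes), the auxin response elements TGTCTC and TGTCGG before 7 (10.9% of all genes) and 2 (4.16%), and the brassinosteroid elements CGTGTG (5.37%) and CGTGCG (1.57%) before 0. None of these 6 motifs is the reverse complement of another. Members of an array are copies of each other, and their windows are not independent. The windows of the gene with the highest mean level in each array are shown, with CACATG, or CATGTG where it lay on the other strand, in capitals.
SAUR21, chr5:5968102-5968351, plus strand: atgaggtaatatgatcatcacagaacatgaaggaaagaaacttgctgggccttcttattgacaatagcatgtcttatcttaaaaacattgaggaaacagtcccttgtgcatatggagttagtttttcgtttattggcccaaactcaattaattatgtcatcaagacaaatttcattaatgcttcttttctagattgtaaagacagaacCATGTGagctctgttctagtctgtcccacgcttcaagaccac
SAUR62, chr1:10303419-10303668, minus strand: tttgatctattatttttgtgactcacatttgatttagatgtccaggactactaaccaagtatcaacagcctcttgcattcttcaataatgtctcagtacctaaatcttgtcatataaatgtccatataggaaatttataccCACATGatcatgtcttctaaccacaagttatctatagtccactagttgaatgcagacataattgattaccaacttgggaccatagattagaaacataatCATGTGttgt
SAUR50, chr4:16583076-16583325, minus strand: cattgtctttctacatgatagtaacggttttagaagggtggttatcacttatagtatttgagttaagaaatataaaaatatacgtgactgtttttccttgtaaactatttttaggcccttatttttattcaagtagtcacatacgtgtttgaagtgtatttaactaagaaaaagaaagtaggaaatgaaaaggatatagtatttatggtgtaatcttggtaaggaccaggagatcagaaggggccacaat
SAUR16, chr4:18129987-18130236, plus strand: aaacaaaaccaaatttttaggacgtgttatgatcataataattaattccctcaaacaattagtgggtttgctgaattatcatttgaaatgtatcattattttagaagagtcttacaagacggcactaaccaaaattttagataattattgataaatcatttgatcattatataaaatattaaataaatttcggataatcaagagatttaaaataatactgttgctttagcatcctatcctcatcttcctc
SAUR29, chr3:977475-977724, minus strand: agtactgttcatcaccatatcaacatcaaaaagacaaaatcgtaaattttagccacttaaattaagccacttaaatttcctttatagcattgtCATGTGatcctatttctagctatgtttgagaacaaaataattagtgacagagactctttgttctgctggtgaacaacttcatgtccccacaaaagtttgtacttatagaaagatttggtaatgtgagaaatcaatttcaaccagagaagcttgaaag
SAUR6, chr2:9086030-9086279, minus strand: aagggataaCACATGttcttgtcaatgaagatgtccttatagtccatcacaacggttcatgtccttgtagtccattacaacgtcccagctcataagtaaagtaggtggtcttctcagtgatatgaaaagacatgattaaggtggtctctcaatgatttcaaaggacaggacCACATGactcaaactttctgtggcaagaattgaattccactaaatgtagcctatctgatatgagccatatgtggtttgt
SAUR21, SAUR62, SAUR29 and SAUR6 had at least 1 match in these windows, while SAUR50 and SAUR16 had 0. The positions of the E-boxes and of the auxin response elements in all 32 windows are drawn in the map of motif matches.

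**Figure D1:**
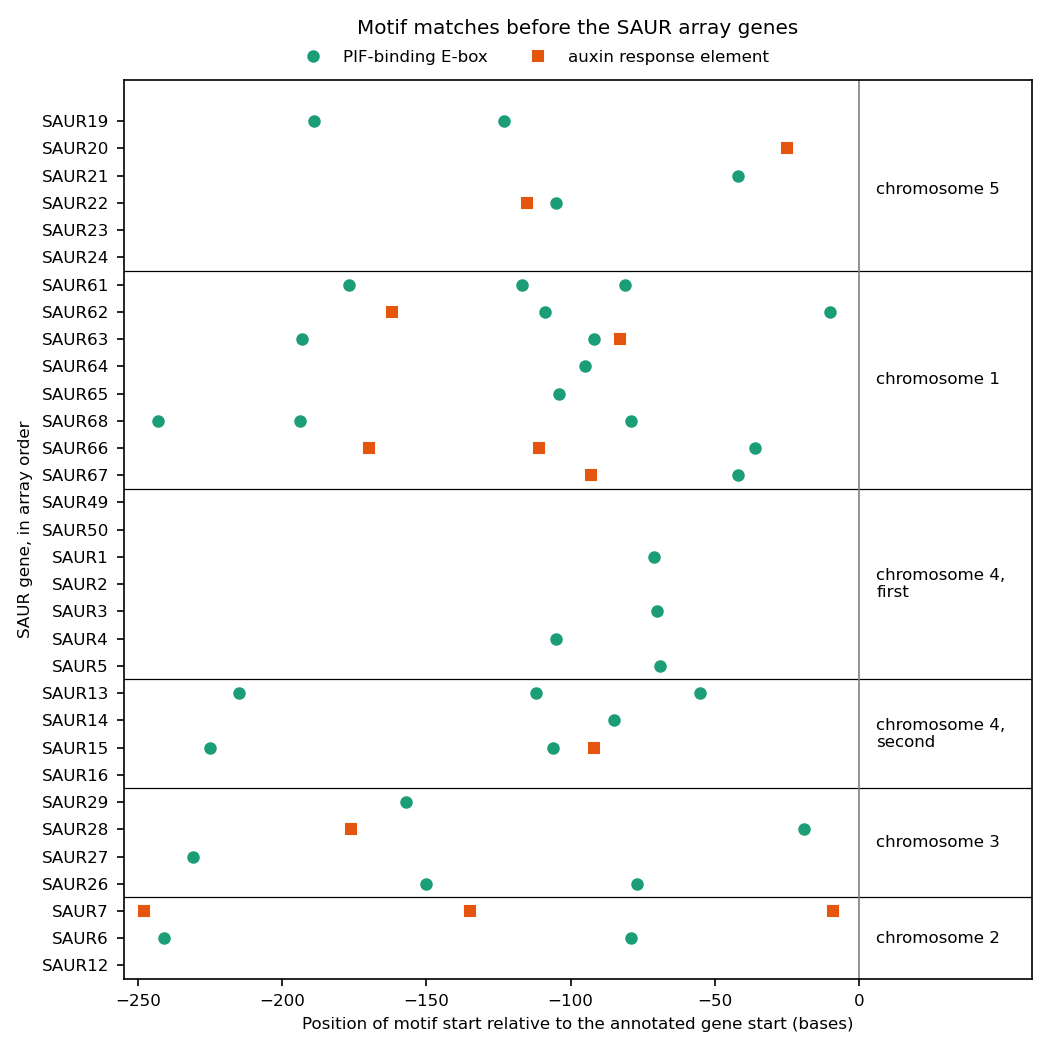
Matches to the PIF-binding E-box (circles) and to auxin response elements (squares) in the 250 bases before each of the 32 SAUR genes, plotted by the distance in bases of the match from the annotated start. Circles appear for 23 genes, among them all 8 genes of the chromosome 1 array and all 4 of the chromosome 3 array.

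Library totals ran from 9749710 to 21175260 counts, with a median of 18488977, and 3 counts of a gene, taken as the floor, stood for 0.128 to 0.317 CPM (counts scaled to a common library size, with TMM factors, which correct for composition). UVR8 had 12.2 to 17.01 CPM in uvr8 libraries and 65.6 to 109.5 CPM in hfr1 and wild-type libraries, while HFR1 was not lower in hfr1 libraries (101.4 to 121.5 CPM under +FR) than in wild type (77.3 to 88.4 CPM), so that its level does not check that label. All 5 shoot and all 5 root marker genes were detected in each group. The summed root markers ran from 1719 to 3374 CPM in uvr8 seedlings under +FR and +FR+UVB, against 3101 to 3940 CPM in wild type under the same conditions. PYK10 alone separated there (1587 to 3065 CPM in uvr8 and 3383 to 3728 CPM in wild type under +FR), while the other 4 root markers overlapped between the genotypes in both conditions. The summed shoot markers of wild type ran from 31918 to 35873 CPM under +FR+UVB, against 20769 to 26562 CPM under +FR, and in uvr8 from 18490 to 28160 CPM, against 18917 to 25571 CPM. The part of these markers in the results below was not tested. In whole seedlings, fewer cells of a type and less RNA per cell cannot be told apart.

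Of the 32 genes, 31 passed the authors' filter on low counts and were tested. SAUR2 (AT4G34780), in the first chromosome 4 array, was alone below the filter, with 0 counts in 33 libraries and 1 count in each of the other 3. Levels varied widely among the other members. Per kilobase of exon and as a mean over all 36 libraries, SAUR14 (45.4 CPM per kb), SAUR16 (34.0) and SAUR20 (29.2) were highest and SAUR3 (0.957) and SAUR61 (0.965) lowest of those tested. The highest genes by CPM, not corrected for length, were SAUR21 in the chromosome 5 array, SAUR62 in the chromosome 1 array, SAUR50 and SAUR16 in the first and second chromosome 4 arrays, SAUR29 in the chromosome 3 array and SAUR6 in the chromosome 2 array. They held between 20.8% (SAUR62) and 89.5% (SAUR6) of the summed CPM of their array, so that the sum of the chromosome 2 array is mostly that of SAUR6.

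As sums over their members the arrays fell into distinct patterns in wild type. The chromosome 5 array had 41.3 ± 8.08 CPM under +FR+UVB, 124 ± 27.1 CPM under +FR, 13.7 ± 2.97 CPM under +UVB and 22.8 ± 1.56 CPM under WL (SD, n = 3 each), and the libraries of these 4 groups did not overlap. The chromosome 1 array (35.9 ± 7.97, 90.9 ± 10.1, 21.1 ± 3.37 and 40.6 ± 3.99 CPM) and the chromosome 3 array (5.19 ± 1.48, 26.5 ± 5.73, 3.00 ± 0.415 and 9.15 ± 1.61 CPM, in the same order) were also highest under +FR and lowest under +UVB. In these 3 arrays +FR libraries lay above WL libraries and +UVB libraries below them without overlap.

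The other arrays had smaller differences in their sums. The first chromosome 4 array had 14.1 ± 1.78 CPM under +FR+UVB, 34.0 ± 3.67 CPM under +FR, 15.1 ± 1.43 CPM under +UVB and 22.2 ± 0.501 CPM under WL, and +FR+UVB and +UVB libraries overlapped. The second chromosome 4 array (47.0 ± 4.27, 86.1 ± 14.3, 50.2 ± 3.08 and 75.3 ± 7.20 CPM, in the same order) had overlapping libraries under +FR and WL. The chromosome 2 array went the other way under low R:FR, with 33.8 ± 5.96 CPM under +FR, against 48.9 ± 6.17 CPM under WL, and these libraries did not overlap. Arrays were compared by these levels only, since genes of an array share a locus and are not replicates.

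**Figure D2:**
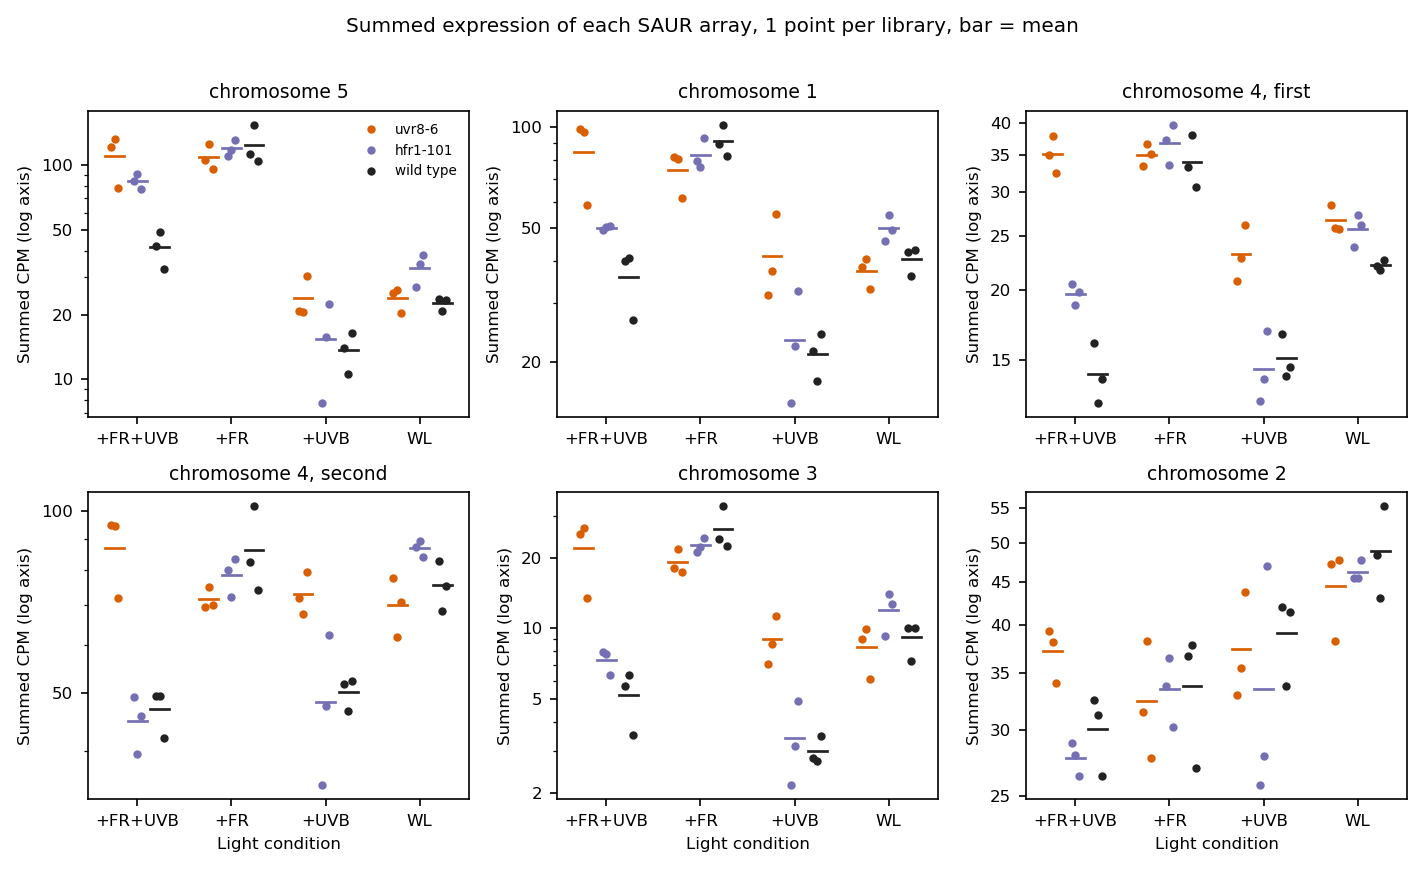
Summed CPM of each of the 6 arrays in every library (points, log axis) with the mean of each group (bar), by light condition and genotype. In wild type the chromosome 5 array averaged 41.3 CPM under +FR+UVB and 124 CPM under +FR, while in uvr8 both conditions averaged about the same level (111 and 109 CPM).

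Low R:FR raised the majority of the array genes in wild type, the question being which of them belong to the response to shade. Of 31 tested genes 19 rose and 0 fell (fold change over 2 and adjusted p under 0.05 in edgeR's legacy quasi-likelihood test), where 1.43% of all tested genes rose and 0.516% fell. The median log2 fold change was 1.28 over the members and 0.01 over all 20926 tested genes. All 6 genes of the chromosome 5 array rose (median 2.40), 4 of 4 of the chromosome 3 array (median 1.54), 5 of 8 of the chromosome 1 array (median 1.27), 2 of 4 of the second and 1 of 6 of the first chromosome 4 array (medians 0.87 and 0.24) and 1 of 3 of the chromosome 2 array (median 0.22). The median log2 fold change was 1.28 for the 23 tested genes with an E-box before their start and 1.02 for the 8 without, and 15 and 4 of them rose.

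SAUR22, a chromosome 5 gene, had 17.02, 24.9 and 18.5 CPM under +FR, against 1.33, 1.67 and 2.40 CPM under WL. This was the largest rise (log2 fold change 3.47 ± 0.31, SE; adjusted p = 3.82e-09). SAUR68 of the chromosome 1 array had 3.59, 4.70 and 3.17 CPM under +FR, against 0.190, 0.172 and 0.653 CPM under WL (3.44 ± 0.47, adjusted p = 6.39e-06), where its WL libraries held only 3 to 12 counts. SAUR23, beside SAUR22 on chromosome 5, rose by 3.12 ± 0.28 on the log2 scale (adjusted p = 4.09e-09). In each of these genes the lowest +FR library lay above the highest WL library, as for 24 of the 31 genes (14.9% of all tested genes).

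Other genes that rose were SAUR19, SAUR20, SAUR21 and SAUR24 on chromosome 5, with log2 fold changes of 2.01 to 2.50, SAUR63, SAUR64, SAUR65 and SAUR66 on chromosome 1, SAUR26 to SAUR29 on chromosome 3, SAUR1, SAUR13 and SAUR15 on chromosome 4 and SAUR7 on chromosome 2. SAUR15, also known as SAUR-AC1, an auxin-inducible gene used as a marker of auxin responses, was the smallest of them (1.07 ± 0.30, adjusted p = 0.0223), and its adjusted p lay between 0.0524 and 0.107 without each of 5 of the 6 libraries in turn. SAUR66 (log2 fold change 0.92 without the second WL library and 0.95 without the second +FR library) and SAUR7 (adjusted p = 0.0648 without the second WL library) also fell short in such fits. SAUR61 on chromosome 1, not called by the legacy test, was called as raised by DESeq2 (1.26, adjusted p = 0.045). It was also called by edgeR's likelihood ratio (adjusted p = 0.0218) and current quasi-likelihood (adjusted p = 0.0283) tests.

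The leading genes of the arrays differed in their response to low R:FR. SAUR21 had 29.5, 40.6 and 25.6 CPM under +FR, against 7.04, 6.37 and 5.88 CPM under WL (log2 fold change 2.31 ± 0.27, adjusted p = 5.06e-07). SAUR29, of the subfamily known for its variation in warm-temperature growth responses, had 9.08, 12.9 and 8.96 CPM under +FR, against 3.99, 3.45 and 4.85 CPM under WL (1.33 ± 0.25, adjusted p = 0.000492). SAUR62 had 17.8, 15.3 and 15.6 CPM under +FR, against 9.38, 8.38 and 10.2 CPM under WL (0.80 ± 0.21, adjusted p = 0.0135). The groups did not overlap in any of these genes, and SAUR62 stayed under the fold change of 2.

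SAUR50 and SAUR16, known as light-induced in cotyledons, also had higher values that stayed under the fold change of 2. SAUR50 had 19.2, 23.5 and 15.3 CPM under +FR, against 12.8, 11.9 and 10.7 CPM under WL (log2 fold change 0.71 ± 0.14, adjusted p = 0.00109). SAUR16 had 51.8, 65.7 and 46.2 CPM under +FR, against 41.1, 33.0 and 28.9 CPM under WL (0.67 ± 0.21, adjusted p = 0.0401). A pair of genes had lower values under low R:FR. SAUR14 had 20.6, 22.2 and 16.0 CPM under +FR, against 36.9, 30.0 and 40.1 CPM under WL (-0.86 ± 0.12, adjusted p = 4.78e-06), and SAUR6 had 31.4, 32.2 and 22.1 CPM, against 45.01, 40.1 and 51.3 CPM (-0.67 ± 0.17, adjusted p = 0.0087). Of the 4 wild-type conditions, both had their highest mean under WL. SAUR7, which overlaps SAUR6, had a log2 fold change of 1.34 ± 0.33 against the same WL libraries.

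**Figure D3:**
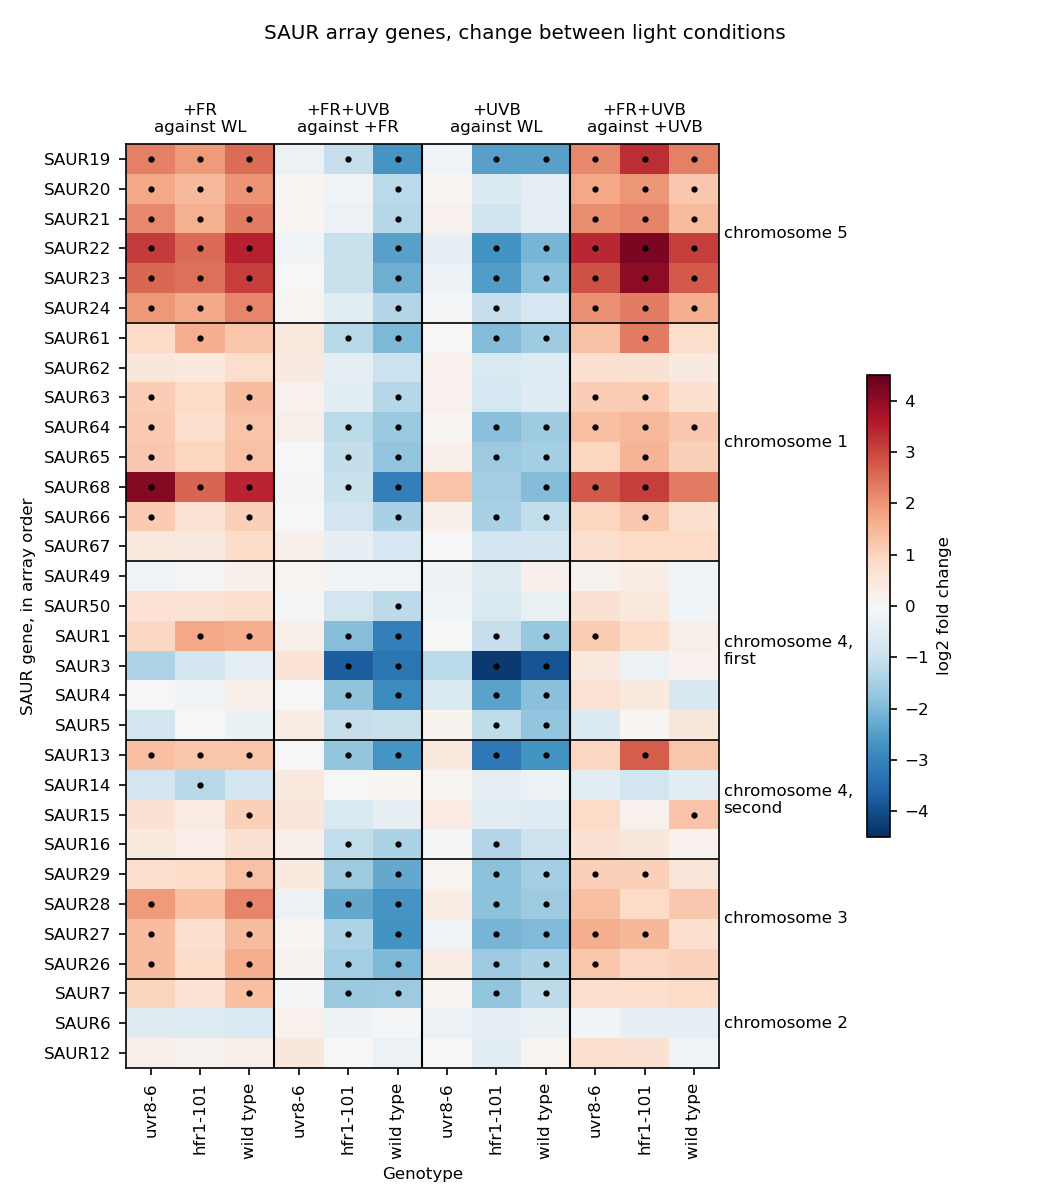
Log2 fold change (colour) of the 31 tested SAUR genes in 4 comparisons of light conditions, each in uvr8-6, hfr1-101 and wild type; rows follow the order of genes in the arrays and dots mark a fold change over 2 with an adjusted p under 0.05. In wild type 19 genes carry a dot for +FR against WL and 23 for +FR+UVB against +FR, and in uvr8-6 0 carry one for +FR+UVB against +FR and for +UVB against WL.

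UV-B added to low R:FR lowered array genes in wild type, the question being whether UV-B counteracts the shade response. Of 31 genes 23 fell and 0 rose, where 8.53% of all tested genes fell and 8.27% rose, and the median log2 fold change was -1.62 over the members and -0.04 over all tested genes. Of the 19 genes raised by low R:FR, 18 fell when UV-B was added, SAUR15 (-0.36 ± 0.29, adjusted p = 0.317) being the exception. A further 5 genes fell (SAUR61, SAUR50, SAUR3, SAUR4 and SAUR16), of which SAUR61 was called as raised by low R:FR in other tests than the legacy one. These comparisons share the +FR libraries. The groups did not overlap for 26 genes, all lower under +FR+UVB (31.2% of all tested genes).

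By array, 6 of 6 genes fell on chromosome 5 (median log2 fold change -1.76), 4 of 4 on chromosome 3 (-2.49), 6 of 8 on chromosome 1 (-1.56), 4 of 6 in the first and 2 of 4 in the second chromosome 4 array (-2.02 and -0.89) and 1 of 3 on chromosome 2 (-0.25). SAUR1 had the largest fall among genes well above the floor, with 0.983, 0.674 and 0.487 CPM under +FR+UVB, against 6.53, 5.81 and 5.74 CPM under +FR (-3.08 ± 0.30, adjusted p = 9.09e-10). SAUR68 had 0.459, 0.562 and 0.325 CPM under +FR+UVB, against 3.59, 4.70 and 3.17 CPM under +FR (-3.08 ± 0.45, adjusted p = 1.59e-06). SAUR3 held 5 counts under +FR+UVB, against 56 under +FR (ratio of CPM 0.0969, 95% exact interval 0.0303 to 0.24 from counting error alone), and its fitted change was -3.28 ± 0.75 (adjusted p = 0.000538).

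The leading genes again separated the arrays. SAUR21 had 12.9, 15.3 and 10.7 CPM under +FR+UVB (-1.30 ± 0.25 against +FR, adjusted p = 8.95e-05) and SAUR29 had 2.23, 2.42 and 1.57 CPM (-2.32 ± 0.26, adjusted p = 2.27e-08). SAUR29 was then below its WL libraries (3.45 to 4.85 CPM), whereas SAUR21 was above its own (5.88 to 7.04 CPM). SAUR50 had 9.04, 8.09 and 8.71 CPM under +FR+UVB (-1.17 ± 0.15, adjusted p = 1.08e-07) and SAUR16 had 20.9, 21.7 and 18.4 CPM (-1.42 ± 0.22, adjusted p = 2.77e-06). SAUR62 had 8.58, 9.78 and 6.54 CPM (-0.97 ± 0.21, adjusted p = 0.000362), SAUR6 had 28.6, 28.2 and 23.7 CPM (-0.09 ± 0.17, adjusted p = 0.677) and SAUR14 had 21.7, 21.6 and 20.01 CPM (0.11 ± 0.12, adjusted p = 0.463). Without the second +FR library SAUR50 stayed just under the fold change of 2 (log2 fold change -0.99).

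UV-B without low R:FR lowered 18 of 31 genes and raised 0 in wild type, where 6.79% of all tested genes fell and 6.68% rose. The median log2 fold change was -1.41 over the members and -0.05 over all tested genes. The genes that fell were all 4 of the chromosome 3 array, 5 of 8 of the chromosome 1 array (SAUR61, SAUR64, SAUR65, SAUR66 and SAUR68), 4 of 6 of the first chromosome 4 array (SAUR1, SAUR3, SAUR4 and SAUR5), 3 of 6 of the chromosome 5 array (SAUR19, SAUR22 and SAUR23), SAUR13 and SAUR7. Of the 23 genes with an E-box before their start 16 fell, and of the 8 without 2. For +FR+UVB against +FR these counts were 17 of 23 and 6 of 8 genes that fell, and for +FR+UVB against +UVB 5 of 23 and 3 of 8 that rose. The difference between genes with and without an E-box was tested in none of the comparisons.

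SAUR13 had 0.445, 0.0619 and 0.695 CPM under +UVB, against 2.09, 2.41 and 3.21 CPM under WL (-2.67 ± 0.37, adjusted p = 7.47e-07). SAUR19 had 0.382, 0.186 and 0.379 CPM under +UVB, against 1.90, 1.03 and 2.23 CPM under WL (-2.43 ± 0.39, adjusted p = 8.32e-06). Both held few counts in the +UVB libraries, SAUR13 with 7, 1 and 11 and SAUR19 with 6, 3 and 6. SAUR3 held 4 counts under +UVB, against 68 under WL (ratio 0.0636, 95% exact interval 0.0168 to 0.17), with a fitted change of -3.87 ± 0.77 (adjusted p = 0.000131). In none of these genes did the groups overlap, as for 27 of 31 genes, all lower under +UVB (30.2% of all tested genes).

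SAUR28 (-1.65 ± 0.69, adjusted p = 0.0491) sat at the threshold, and with the replicate number as a block its adjusted p was 0.0571, which left 17 genes. It held 5, 0 and 8 counts in the +UVB libraries. Its call was also lost without each of 4 of the 6 libraries in turn (adjusted p = 0.081 to 0.206) and in edgeR's current quasi-likelihood test (adjusted p = 0.0612). Further calls rested on few counts: SAUR68 held 4 counts under +UVB, against 18 under WL (ratio 0.24, 95% exact interval 0.0591 to 0.729), and its call was lost without each of 4 of the 6 libraries in turn (adjusted p = 0.05 to 0.372). SAUR7 (adjusted p = 0.0509 to 0.151 without each of 3 libraries) and SAUR61 (adjusted p = 0.081 without the second +UVB library) were likewise uncertain. SAUR66, with 59, 43 and 71 counts under +UVB, fell short of the fold change alone. Its log2 fold change was -0.98 and -0.92 without either of 2 libraries (adjusted p = 0.0105 and 0.0162).

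Within the chromosome 5 array the genes differed in this response although their coding sequences are alike. SAUR21 had 5.53, 3.53 and 5.43 CPM under +UVB, against 7.04, 6.37 and 5.88 CPM under WL (-0.41 ± 0.29, adjusted p = 0.258), and SAUR20 had a change of the same size (-0.41 ± 0.26, adjusted p = 0.206). SAUR24 was lower by less than the fold change of 2 (-0.75 ± 0.26, adjusted p = 0.0165). SAUR19, SAUR22 and SAUR23 had mean levels of 1.72, 1.80 and 1.69 CPM under WL and SAUR20, SAUR21 and SAUR24 of 6.62, 6.43 and 4.49 CPM, so that the genes with the lower WL level had the larger changes in both directions. The difference between the genes in their changes was not tested.

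Leading genes of the other arrays under UV-B alone were SAUR29 (1.53, 1.42 and 1.33 CPM under +UVB; -1.52 ± 0.29, adjusted p = 6.52e-05), SAUR16 (19.1, 17.01 and 17.6 CPM; -0.94 ± 0.22, adjusted p = 0.000781), SAUR62 (6.11, 5.69 and 7.08 CPM; -0.57 ± 0.22, adjusted p = 0.0367), SAUR50 (10.7, 9.03 and 8.40 CPM; -0.33 ± 0.15, adjusted p = 0.0651) and SAUR6 (38.3, 31.1 and 38.6 CPM; -0.34 ± 0.17, adjusted p = 0.0972). Of these, SAUR29 alone passed both criteria. SAUR49 and SAUR12 stayed within a log2 fold change of 0.25 in each of the 4 wild-type comparisons, with adjusted p of 0.391 or higher.

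**Figure D4:**
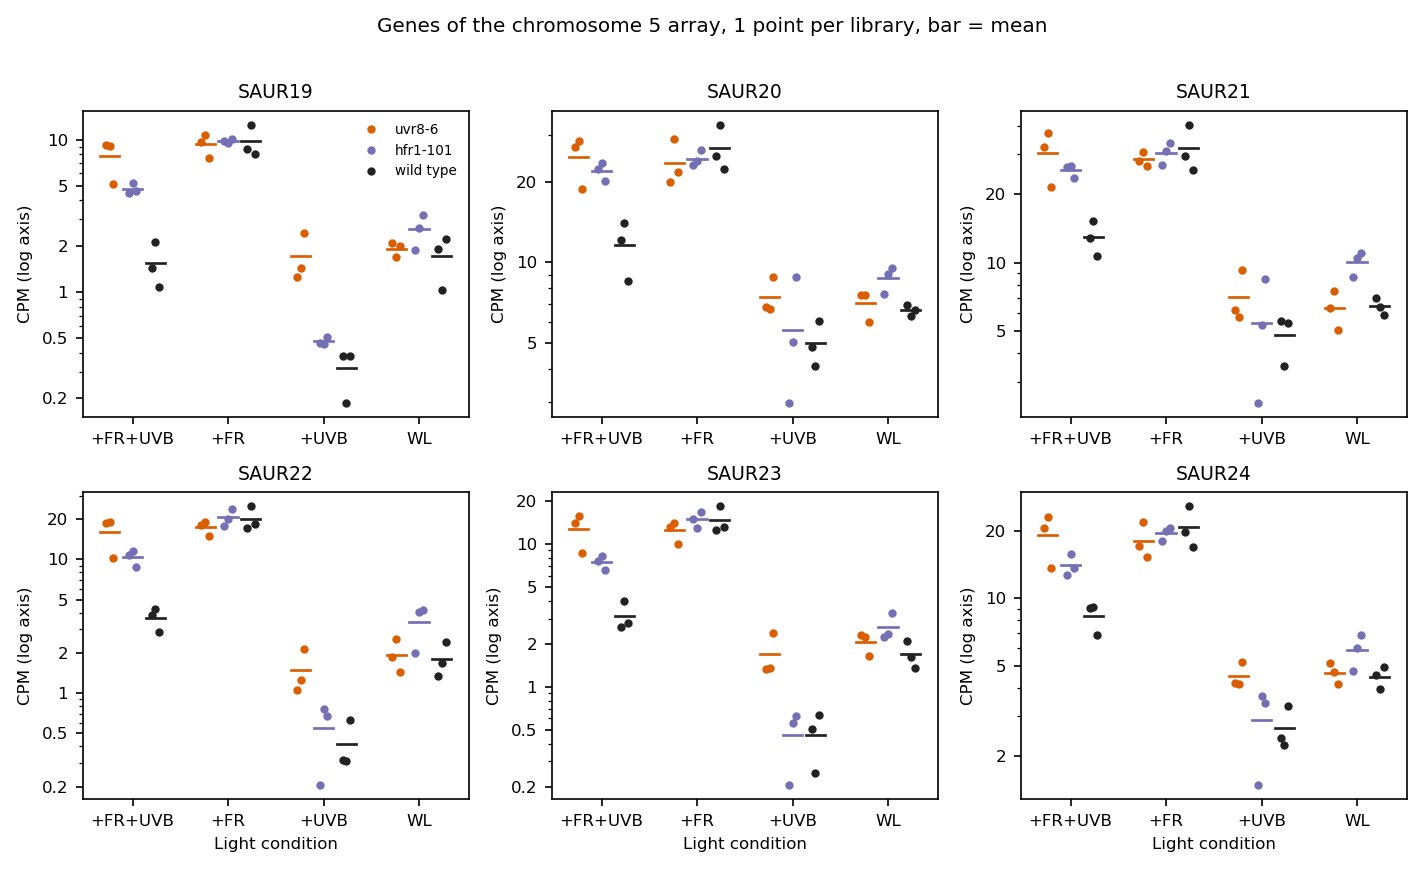
CPM of the 6 genes of the chromosome 5 array in every library (points, log axis) with group means (bars), by light condition and genotype. Under +FR+UVB the wild-type points lie below those of both mutants in all 6 panels, and for SAUR22 the means were 16.0 CPM in uvr8-6, 10.4 CPM in hfr1-101 and 3.67 CPM in wild type.

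Low R:FR in the presence of UV-B was examined by setting +FR+UVB against +UVB. In wild type 8 of 31 genes rose and 0 fell, where 0.401% of all tested genes rose and 0.201% fell. All 6 genes of the chromosome 5 array rose, together with SAUR64 (1.23 ± 0.32, adjusted p = 0.0263) and SAUR15 (1.28 ± 0.32, adjusted p = 0.0244), and 0 genes passed in the first chromosome 4, chromosome 3 and chromosome 2 arrays. SAUR22 had 3.87, 4.27 and 2.87 CPM under +FR+UVB, against 0.318, 0.309 and 0.632 CPM under +UVB (3.11 ± 0.41, adjusted p = 4.79e-05). SAUR23 (2.75 ± 0.36, adjusted p = 4.48e-05) and SAUR19 (2.28 ± 0.40, adjusted p = 0.00124) followed, and none of these groups overlapped. SAUR14 was lower, under the fold change of 2 (-0.51 ± 0.12, adjusted p = 0.0122). The calls of SAUR64 (adjusted p = 0.0694 to 0.146) and SAUR15 (0.0501 to 0.137) were each lost in 5 of 6 fits that left out 1 library, all but that without the third +FR+UVB library. The count was 5 without the second +FR+UVB library or the second +UVB library. In these 2 fits the call of SAUR20 in the chromosome 5 array was lost as well (adjusted p = 0.0537 to 0.0696). Whether the effect of low R:FR differed with and without UV-B was not tested.

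In uvr8 seedlings low R:FR raised 15 of 31 genes and lowered 0 in edgeR's legacy quasi-likelihood test (1.49% of all tested genes rose and 0.554% fell). Its current quasi-likelihood method also called a fall of SAUR3 (-1.39, adjusted p = 0.0423) and a rise of SAUR7 (1.002, adjusted p = 0.041). The rise of SAUR7 was called by edgeR's likelihood ratio test as well (adjusted p = 0.0374). The 15 genes that rose in the legacy test were the 6 of the chromosome 5 array, SAUR63, SAUR64, SAUR65, SAUR66 and SAUR68, SAUR26, SAUR27 and SAUR28, and SAUR13. The largest rises were those of SAUR68 (3.00, 3.00 and 3.24 CPM under +FR, against 0.110, 0.248 and 0.144 CPM under WL; 4.14 ± 0.51, adjusted p = 1.94e-06), SAUR22 (3.16 ± 0.30, adjusted p = 1.9e-08) and SAUR23 (2.60 ± 0.27, adjusted p = 7.23e-08). The libraries did not overlap for 21 genes with higher and 5 with lower values under +FR (13% and 10.3% of all tested genes). The effect of low R:FR in uvr8 differed from that in wild type for 0 of 31 genes, as for 0 of all 20926 tested genes, with 0 members at p under 0.05 before adjustment and 0 with DESeq2 or edgeR's likelihood ratio test. In WL no gene differed between uvr8 and wild type (0 of 31, with 2 at p under 0.05 before adjustment and 0 with DESeq2; 0.0478% of all tested genes were higher and 0.0573% lower).

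No array gene was called as lowered by UV-B in uvr8. For +FR+UVB against +FR 0 of 31 genes passed, with 1 at p under 0.05 before adjustment (SAUR14) and 0 with DESeq2 (0.616% of all tested genes rose and 0.239% fell), and the median log2 fold change was 0.14. For +UVB against WL 0 of 31 passed, with 2 at p under 0.05 before adjustment and 0 with DESeq2 (0.722% rose and 0.306% fell), and the median was 0.08. With UV-B added to low R:FR the libraries did not overlap for 1 gene with higher and 1 with lower values (7.49% and 7.9% of all tested genes), and with UV-B alone for 2 and 1 genes (8.36% and 9.72%). The gene that was lower with UV-B alone was SAUR3, whose log2 fold change of -1.20 did not pass the adjusted p. It held 8, 10 and 25 counts under +UVB, against 39, 33 and 28 under WL. SAUR14 (0.43 ± 0.12, adjusted p = 0.0476) was the only gene under an adjusted p of 0.05 in either comparison. SAUR21 had 32.3, 37.2 and 21.6 CPM under +FR+UVB, against 28.2, 30.8 and 26.6 CPM under +FR, and SAUR29 had 9.98, 11.8 and 5.08 CPM, against 5.59, 7.65 and 6.53 CPM. In both genes the groups overlapped, and the third +FR+UVB library was the lowest of its group.

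The other leading genes in uvr8 stayed close to their +FR levels under +FR+UVB. SAUR62 had 19.9, 19.1 and 10.6 CPM, against 13.03, 14.3 and 10.4 CPM, and SAUR50 had 22.4, 23.5 and 23.4 CPM, against 23.5, 25.7 and 24.8 CPM. SAUR16 had 57.6, 60.5 and 38.7 CPM, against 42.5, 48.3 and 43.6 CPM, and SAUR6 had 32.2, 31.97 and 30.8 CPM, against 27.2, 32.4 and 24.4 CPM. In 5 of these 6 leading genes the libraries of +FR+UVB and +FR overlapped, SAUR50 being the exception with slightly lower values under +FR+UVB (-0.09 ± 0.14, adjusted p = 0.792). With low R:FR added to UV-B, 13 genes rose in uvr8 and 0 fell (1.1% of all tested genes rose and 0.459% fell): the 6 chromosome 5 genes, SAUR63, SAUR64 and SAUR68, SAUR26, SAUR27 and SAUR29, and SAUR1. SAUR22 rose most (3.40 ± 0.31, adjusted p = 1.48e-08), followed by SAUR23 (2.88 ± 0.27, adjusted p = 2.86e-08) and SAUR68 (2.75 ± 0.45, adjusted p = 0.000176). The libraries did not overlap for 19 genes with higher and 1 with lower values (8.88% and 7.73% of all tested genes).

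The difference between uvr8 and wild type in the effect of UV-B was tested directly. Under low R:FR the effect was higher in uvr8 for 26 of 31 genes and lower for 0 (16.4% of all tested genes were higher and 17% lower, at an adjusted p under 0.05). The exceptions were SAUR49, SAUR14, SAUR15, SAUR6 and SAUR12. Leaving out each library in turn gave 24 to 27 genes. The call of SAUR5 was lost in 6 of these 12 fits (adjusted p = 0.0572 to 0.19) and that of SAUR67 in 5 (adjusted p = 0.0639 to 0.0987). The largest differences on the log2 scale were those of SAUR3 (3.91 ± 0.95, adjusted p = 0.00191), SAUR1 (3.30 ± 0.39, adjusted p = 1.26e-07), SAUR68 (2.98 ± 0.59, adjusted p = 0.000242), SAUR4 (2.89 ± 0.63, adjusted p = 0.000715), SAUR29 (2.75 ± 0.36, adjusted p = 6.28e-07) and SAUR27 (2.75 ± 0.49, adjusted p = 6.09e-05). The median difference by array was 2.58 on chromosome 3, 2.11 and 1.28 in the first and second chromosome 4 arrays, 1.82 on chromosome 5, 1.61 on chromosome 1 and 0.77 on chromosome 2.

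Without low R:FR the effect of UV-B was higher in uvr8 for 15 of 31 genes and lower for 0 (13.5% of all tested genes were higher and 16.3% lower). The largest differences were those of SAUR68 (3.24 ± 1.00, adjusted p = 0.0151), SAUR13 (3.12 ± 0.48, adjusted p = 1.31e-05), SAUR3 (2.67 ± 0.98, adjusted p = 0.0396) and SAUR19 (2.28 ± 0.49, adjusted p = 0.000835). SAUR3 held 4 counts under +UVB in wild type, and its call was lost in 8 of 12 fits that left out 1 library (adjusted p = 0.0527 to 0.127), those without any WL or the first or second +UVB library of wild type, and without the second or the third WL library or the third +UVB library of uvr8. The call of SAUR68 was lost without the third wild-type WL library (adjusted p = 0.119). In such fits the call of SAUR16 was lost in 6 of 12 (adjusted p = 0.0503 to 0.0839) and that of SAUR22 in 5 of 12 (adjusted p = 0.0569 to 0.093). The call of SAUR23 was lost in 2 of them, and those of SAUR66 and SAUR27 in 1 each. The count was 9 without the third uvr8 +UVB library. Under +FR+UVB itself 23 of 31 genes were higher in uvr8 than in wild type and 0 lower (6.4% of all tested genes were higher and 6.04% lower), with SAUR3 (3.29 ± 0.75, adjusted p = 0.000659), SAUR68 (2.67 ± 0.45, adjusted p = 1.98e-05) and SAUR1 (2.65 ± 0.30, adjusted p = 2.39e-08) the largest. SAUR1 had 5.04, 4.43 and 3.93 CPM in uvr8 and 0.983, 0.674 and 0.487 CPM in wild type, without overlap, as for 27 of 31 genes (26.8% of all tested genes).

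In hfr1 seedlings low R:FR raised 10 of 31 genes and lowered 1 (1.66% of all tested genes rose and 1.14% fell). The genes that rose were the 6 of the chromosome 5 array, SAUR61, SAUR68, SAUR1 and SAUR13, led by SAUR68 (2.62 ± 0.46, adjusted p = 0.000211), SAUR22 (2.55 ± 0.29, adjusted p = 2.54e-07) and SAUR23 (2.49 ± 0.27, adjusted p = 1.08e-07). SAUR61 held 4, 7 and 9 counts under WL, and its call was lost in 3 of 6 fits that left out 1 library (adjusted p = 0.0539 to 0.154). SAUR14 fell, with 16.4, 15.6 and 15.8 CPM under +FR, against 38.7, 37.7 and 38.1 CPM under WL (-1.26 ± 0.12, adjusted p = 8.66e-09). The libraries did not overlap for 22 genes with higher and 3 with lower values under +FR (17.2% and 15.2% of all tested genes). Of the chromosome 3 array 0 of 4 genes passed in hfr1 in edgeR's legacy quasi-likelihood test, while SAUR28 was called by DESeq2 (1.40, adjusted p = 0.047) and by edgeR's likelihood ratio and current quasi-likelihood tests, and all 4 were higher without overlap, with p under 0.05 before adjustment. The effect of low R:FR differed from that in wild type for 0 of 31 genes, as for 0 of all 20926 tested genes, with 2 members at p under 0.05 before adjustment and 0 with DESeq2. In WL 0 of 31 genes differed between hfr1 and wild type, with 7 at p under 0.05 before adjustment and 0 with DESeq2 (0.0478% of all tested genes were higher and 0.043% lower), and 25 of the 31 had a positive log2 fold change (median 0.33).

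UV-B added to low R:FR lowered 16 of 31 genes in hfr1 and raised 0 (6.66% of all tested genes fell and 6.61% rose). They comprised 4 of 4 genes of the chromosome 3 array, 4 of 6 of the first chromosome 4 array (SAUR1, SAUR3, SAUR4 and SAUR5), SAUR13 and SAUR16, SAUR61, SAUR64, SAUR65 and SAUR68, SAUR7 and, of the chromosome 5 array, SAUR19. The call of SAUR68 was lost without any 1 of the 6 libraries (adjusted p = 0.0533 to 0.0955). Those of SAUR61, SAUR65 and SAUR5 were each lost in 2 of these 6 fits. SAUR28 fell most of the genes with more than 3 counts (-2.30 ± 0.53, adjusted p = 0.000678), followed by SAUR1 (-1.91 ± 0.27, adjusted p = 1.08e-06). SAUR3 held 3 counts under +FR+UVB, against 53 under +FR (ratio 0.0679, 95% exact interval 0.0136 to 0.21), with a fitted change of -3.71 ± 0.83 (adjusted p = 0.000505).

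The libraries of 25 genes did not overlap, all lower under +FR+UVB (31.4% of all tested genes were so lower and 30.4% higher). The chromosome 5 genes had smaller changes there. SAUR21 had 26.5, 26.6 and 23.7 CPM under +FR+UVB, against 27.0, 31.0 and 33.7 CPM under +FR (-0.26 ± 0.25, adjusted p = 0.41). SAUR19 had 4.47, 5.17 and 4.64 CPM, against 9.76, 9.52 and 10.2 CPM (-1.04 ± 0.25, adjusted p = 0.000933), and the changes of the remaining 4 genes lay between -0.99 and -0.15. Leading genes of the other arrays were SAUR29 (3.32, 2.98 and 2.01 CPM, against 7.95, 8.85 and 8.66 CPM), SAUR50 (13.7, 13.1 and 13.02 CPM, against 23.0, 21.5 and 26.1 CPM), SAUR16 (27.6, 21.9 and 23.6 CPM, against 52.7, 48.8 and 57.7 CPM), SAUR62 (11.5, 10.6 and 10.95 CPM, against 14.6, 12.1 and 17.6 CPM) and SAUR6 (26.4, 23.2 and 22.3 CPM, against 29.1, 31.7 and 24.4 CPM). Of these 5, all but SAUR6 were lower without overlap.

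**Figure D5:**
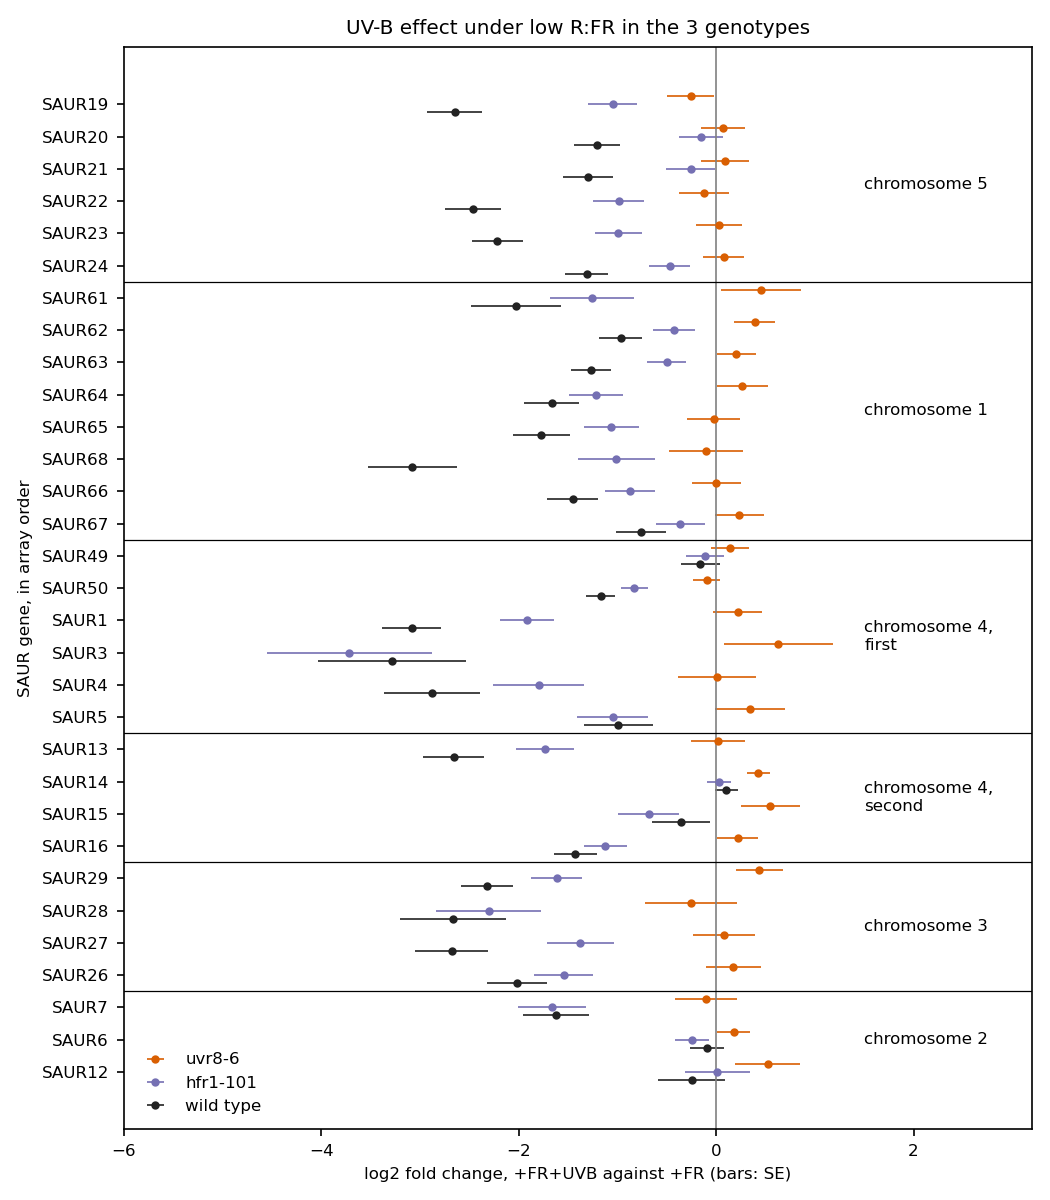
Log2 fold change of +FR+UVB against +FR (points, with SE as bars) for the 31 tested SAUR genes in uvr8-6, hfr1-101 and wild type, grouped by array. On chromosome 5 the hfr1-101 points (-1.04 to -0.15) lie between those of uvr8-6 (-0.26 to 0.09) and wild type (-2.65 to -1.21).

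The hfr1 minus wild type difference in the effect of UV-B under low R:FR passed for 0 of 31 genes, where 0.0621% of all tested genes were higher and 0.00478% lower, with 11 genes at p under 0.05 before adjustment. DESeq2 and edgeR's likelihood ratio test each called 2, SAUR19 and SAUR68. On the log2 scale the difference was 1.60 ± 0.37 for SAUR19, which had the smallest adjusted p of the 31 (0.112), and the median difference was 1.14 on chromosome 5, 0.64 on chromosome 1, 0.59 on chromosome 3 and 0.19 or less in size in the other arrays. The difference in the effect of UV-B without low R:FR passed for 0 of 31 genes, as for 0 of all 20926 tested genes, with 1 member at p under 0.05 before adjustment and 0 with DESeq2.

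Under +FR+UVB itself 3 of 31 genes were higher in hfr1 than in wild type and 0 lower (0.473% of all tested genes were higher and 0.239% lower). These calls of edgeR's legacy quasi-likelihood test were all in the chromosome 5 array. SAUR19 had 4.47, 5.17 and 4.64 CPM in hfr1 and 1.44, 2.14 and 1.08 CPM in wild type (1.61 ± 0.28, adjusted p = 0.000981). SAUR22 had 10.8, 11.6 and 8.83 CPM in hfr1 and 3.87, 4.27 and 2.87 CPM in wild type (1.51 ± 0.28, adjusted p = 0.00232), and SAUR23 had 7.56, 8.27 and 6.59 CPM in hfr1 and 2.62, 3.99 and 2.81 CPM in wild type (1.24 ± 0.26, adjusted p = 0.00663). In each the lowest hfr1 library was above the highest wild-type library, as for 15 of 31 genes (14.5% of all tested genes). SAUR20 (0.93 ± 0.23, adjusted p = 0.0274), SAUR21 (0.98 ± 0.26, adjusted p = 0.0363) and SAUR50 (0.62 ± 0.15, adjusted p = 0.0179) passed the adjusted p and not the fold change of 2. SAUR68 of the chromosome 1 array, not called by the legacy test, was called by DESeq2 (1.69, adjusted p = 0.00605). It was also called by edgeR's likelihood ratio and current quasi-likelihood tests.

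UV-B without low R:FR lowered 19 of 31 genes in hfr1 and raised 0 (6.83% of all tested genes fell and 7.96% rose). These were SAUR19, SAUR22, SAUR23 and SAUR24, SAUR61, SAUR64, SAUR65 and SAUR66, the 4 genes of the chromosome 3 array, SAUR1, SAUR3, SAUR4 and SAUR5, SAUR13 and SAUR16, and SAUR7. Apart from SAUR3, which held 4 counts under +UVB, against 70 under WL (ratio 0.0466, 95% exact interval 0.0123 to 0.125), the largest falls were those of SAUR13 (-3.22 ± 0.40, adjusted p = 1.5e-07), SAUR22 (-2.67 ± 0.38, adjusted p = 1.67e-06) and SAUR23 (-2.51 ± 0.36, adjusted p = 1.31e-06). SAUR13 held only 6, 4 and 3 counts in the +UVB libraries, and SAUR22 and SAUR23 held 4 each in the first. SAUR61 held 1, 0 and 5 there, and its call was lost in 3 of 6 fits that left out 1 library (adjusted p = 0.0514 to 0.07). The first +UVB library was the lowest of its group in hfr1 for SAUR21 (2.41 CPM, against 5.33 and 8.53 CPM in the others), SAUR22 and SAUR16. The libraries did not overlap for 25 genes, all lower under +UVB (27.5% of all tested genes). With low R:FR added to UV-B 15 genes rose and 0 fell (0.87% of all tested genes rose and 0.602% fell), namely the 6 chromosome 5 genes, SAUR61, SAUR63, SAUR64, SAUR65, SAUR66 and SAUR68, SAUR27 and SAUR29, and SAUR13. SAUR22 (4.24 ± 0.36, adjusted p = 2.52e-09), SAUR23 (4.01 ± 0.33, adjusted p = 1.33e-09) and SAUR19 (3.31 ± 0.33, adjusted p = 5.55e-08) rose most. The libraries did not overlap for 22 genes with higher and 1 with lower values (12.8% and 8.02% of all tested genes). Leaving out each library in turn gave 15 to 23 genes for +UVB against WL. For +FR+UVB against +UVB it gave 10 to 18, with 10 without the first +UVB library. The calls of SAUR61 and SAUR29 were each lost in 4 of these 6 fits and that of SAUR27 in 3.

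The SAUR genes that are not members of the 6 arrays as taken here, and the partners of SAUR proteins, were counted for comparison in wild type. Of 47 such SAUR genes 32 were tested. SAUR73, which lies within the chromosome 3 array, is among the 47 and was below the filter. Under +FR against WL 5 of 32 rose and 0 fell (1.43% and 0.516% of all tested genes), led by SAUR10 (3.46 ± 0.35), SAUR9 (2.72 ± 0.35) and SAUR46 (2.52 ± 0.56). Under +FR+UVB against +FR 9 fell and 4 rose (8.53% and 8.27% of all tested genes), with SAUR10 (-3.37 ± 0.35) among the largest falls and SAUR74 (2.57 ± 0.28), SAUR37 (1.35 ± 0.21) and SAUR79 (1.17 ± 0.27) the largest rises. SAUR42 and SAUR57, also among the largest falls, rested on few counts. SAUR42 held 1 count under +FR+UVB, against 13 under +FR (ratio of CPM 0.0835, 95% exact interval 0.00196 to 0.556), and its libraries overlapped. SAUR57 held 8 counts under +FR+UVB, against 69 under +FR (ratio 0.126, 95% exact interval 0.0523 to 0.262), without overlap. Under +UVB against WL 3 of 32 fell and 4 rose (6.79% and 6.68% of all tested genes). The difference between these genes and the array genes was not tested.

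Of 18 tested partners, the PP2C.D phosphatases and the proton pumps (AHA), 2 rose under +FR against WL (1.43% of all tested genes), PP2C.D1 (2.77 ± 0.31) and PP2C.D7 (2.02 ± 0.20). Under +FR+UVB against +FR 3 fell (8.53% of all tested genes), PP2C.D1 (-3.21 ± 0.32), PP2C.D7 (-1.74 ± 0.19) and the pump AHA2 (-1.27 ± 0.19), and under +UVB against WL 2 fell (6.79%), PP2C.D1 (-2.20 ± 0.33) and AHA4 (-1.24 ± 0.37). Of 11 auxin receptors and activating ARF transcription factors 0 passed both criteria under +FR against WL in edgeR's quasi-likelihood test, with 5 at p under 0.05 before adjustment, and AFB1, a receptor, was higher by less than the fold change of 2 (0.63 ± 0.11, adjusted p = 0.000229). AFB1 (-1.51 ± 0.11) and ARF19 (-1.03 ± 0.11) fell under +FR+UVB against +FR, 2 of 11 genes, and AFB1 (-1.06 ± 0.11) under +UVB against WL, 1 of 11, beside the shares of all tested genes given for the partners. PP2C.D1 and PP2C.D7 thus moved in the same direction as most array genes in both +FR comparisons, and the other tested phosphatases passed in neither.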

How the data were processed

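Poly(A) RNA of whole seedlings was sequenced with a stranded kit as single-end reads of 100 bases. Per the submitters' processing notes, reads were checked with FastQC 0.10.2, aligned to TAIR10 with TopHat2 2.0.13 and counted per gene with HTSeq 0.6.1. The strand and multiple-mapping settings of the counting are not given in the sources used here. The authors deposited raw counts per gene, which were tested here, and a normalized signal made with edgeR 3.4.2, which equals TMM-scaled CPM to within 0.0283% and served only as the filter on low counts (20926 of 33602 genes kept).

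Counts were fitted with edgeR 4.0.16 (R 4.3.3) by the legacy quasi-likelihood F-test, with TMM scaling and 1 coefficient for each of 12 groups of 3 libraries. A gene was called at a fold change over 2 and a Benjamini-Hochberg adjusted p under 0.05 over all tested genes, and a mutant minus wild type difference in an effect at an adjusted p under 0.05. SE is the log2 fold change divided by the square root of F. DESeq2 1.42.0, edgeR's likelihood ratio and current quasi-likelihood tests, other filters, scalings and thresholds, a fit of the compared genotypes alone, a replicate block and leaving out each library were alternatives. Levels are CPM scaled by TMM, and arrays were described by summed CPM without a test. Intervals are exact and cover counting error only, since reads are not independent molecules.

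Sequences, positions and motifs come from the RefSeq assembly TAIR10.1. Coding identity was taken from pairwise alignments made with Biopython 1.88, and figures were drawn with matplotlib 3.10.9. On simulated counts with 200 changed genes of at least 20 mean counts among 20926, the fit called 191 of them and 3 unchanged genes for wild type +FR against WL, and 184 and 12 for a mutant minus wild type difference.

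Named are all called members, with values for the 3 largest changes in each direction whose libraries did not overlap, up to 3 genes a direction of the other lists, up to 6 largest differences between genotypes, and the gene with the highest mean CPM of each array. Further genes are named where they fell outside a pattern, chosen after their values were seen. Members and lists were chosen with earlier results of these data known. Same-numbered libraries of wild type +UVB and WL deviated together from their group means (correlations 0.231 to 0.403 over genes), which counts as pairing, while no other comparison met a correlation over 0.1 for every pair.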

Additional observations from a re-analysis of the deposited data

Results flagged for a closer look

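The effect of UV-B differed between uvr8 and wild type by a test of the difference itself for 26 of the 31 tested SAUR genes under low R:FR and for 15 of them without low R:FR. Each of these genes had a less negative or more positive log2 fold change in uvr8. The differences ranged from 0.27 to 3.91 on the log2 scale over all 31 genes under low R:FR and from -0.45 to 3.24 without it.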

How the results depend on the processing

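Of 376 counts of called genes recomputed under the alternatives, 366 stayed within 1.5 times their value. Without a minimum fold change the count for +FR+UVB against +FR in uvr8 was 1, for +FR+UVB against +UVB in uvr8 20, and for hfr1 against wild type under +FR+UVB 6 (also 6 with a minimum of 1.5). Scaling by library size gave 23 genes for the uvr8 minus wild type difference in the effect of +UVB. It moved the median of all genes to -0.31 for +FR+UVB against +FR and to -0.22 for +UVB against WL in wild type, while the members' medians were -1.89 and -1.58. DESeq2 and the likelihood ratio test each gave 2 genes for the hfr1 minus wild type difference under low R:FR. Leaving out each library in turn gave 5 to 11 genes for +FR+UVB against +UVB in wild type (5 without the second +FR+UVB or second +UVB library) and 9 to 17 for the uvr8 minus wild type difference in the effect of +UVB (9 without the third uvr8 +UVB library). In wild type such fits gave 16 to 19 genes for +FR against WL, 23 to 24 for +FR+UVB against +FR and 14 to 18 for +UVB against WL. In uvr8 they gave 12 to 17 for +FR against WL and 9 to 16 for +FR+UVB against +UVB. In hfr1 they gave 12 to 17 for +FR+UVB against +FR, 15 to 23 for +UVB against WL and 10 to 18 for +FR+UVB against +UVB. The cause of these changes was not tested.

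With the replicate number as a block, which pairs libraries only for +UVB against WL in wild type, 17 genes were called there, against 18 without it. Where the numbers are no pairing, the block gave 14 genes for +FR+UVB against +UVB in uvr8 and 17 for +FR+UVB against +FR in hfr1, and the other counts were unchanged. Single genes were followed in wild type for low R:FR, for UV-B alone and for UV-B added to low R:FR, only where called there. Genes with an adjusted p under 0.05 between hfr1 and wild type under +FR+UVB were followed as well. Of these 924 values, 895 stayed on their side of the thresholds, 28 were lost, 1 was gained and 0 reversed. Other uncalled genes were left out, so gains such as that of SAUR61 in wild type under low R:FR are not counted in this tally. Genes with few counts, such as SAUR3 and SAUR68 under UV-B, are limited by depth, as are changes of genes near 3 counts in a library.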
